A study of Rattus norvegicus with 6 samples.

Results

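The cardiac contractile genes examined here are 10 named genes of the heart muscle sarcomere and its calcium response, namely Myl7, Actc1, S100a1, Myl4, Myl3, Tnnt2, Tnni1, Tnnc1, Myh6 and Myh7. Their rows were taken by gene symbol from the 20258 rows tested, and 9 of the 10 had a row, always a single row per symbol. Myl4, an atrial light chain, was not analysed here. The names were chosen with the retinoic acid against control difference of these same pools in view, so that difference is given below as a description. The calls of the fit on these genes are counted for the record only and support nothing.

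The values come from 6 arrays on rat embryos at stage E10.5. The 3 exposed samples came from dams dosed by gavage with all-trans retinoic acid at 60 mg/kg, dissolved in olive oil, and the 3 controls from dams dosed with oil alone. Each sample is a pool of biological replicates of flow-sorted cells labelled as neuroepithelial progenitors, which divide to build the brain and spinal cord, and neither the sorting gate nor the interval after dosing is stated in the sources used here. ERCC spike-in mix 1 was added to the controls and mix 2 to the exposed pools. The number of embryos or litters in a pool is not given, so the error terms measure only the spread between these pools. The values are log2 expression units as normalized by the authors, and a difference of 1 unit is a doubling of the signal.

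The sarcomere is the contractile unit of striated muscle, in which thick filaments of myosin pull on thin filaments of actin. Myosin heavy chains are the motors, light chains stiffen and tune them, and the troponin complex on the thin filament releases the brake on contraction when calcium rises. The heart is the first organ of the embryo to contract, and its atria and ventricles use partly different myosin chains. In rodents retinoic acid is known to take part in setting the atrial and venous end of the heart tube. A neuroepithelial progenitor is not known as a source of cardiac myosin, and the values do not show which cells of a pool held these transcripts.

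Of the 9 genes, 8 were higher in every exposed pool than in any control pool, and their differences between group means were 0.32 to 1.82 log2 units. The exception was Tnnc1, whose groups overlapped. The median difference of the 9 was 0.69, while over all tested rows the median was 0.03. In the fit across all rows (limma, Benjamini-Hochberg adjusted p under 0.05) 8 of the 9 were called higher and none lower. Over all rows 7.69% were called higher, 2.06% lower and 9.75% in either direction. Groups that did not overlap were found in 19.0% of rows on the higher side, 6.95% on the lower side and 26.0% in all. Because the genes were picked from this contrast, nothing is read from these shares. After each sample was shifted to equalize the mean of 23 spike-ins with a nominal ratio of 1 between the mixes, the calls of Tnnt2, Tnni1 and Myh7 were lost. That shift added 0.037 to every difference, while the median within-group SD over all rows went from 0.085 to 0.22. The mean of those spike-ins lay between 7.44 and 7.95 in the 6 samples, a wider range than the 6.73 to 6.79 of the sample medians.

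**Figure D1:**
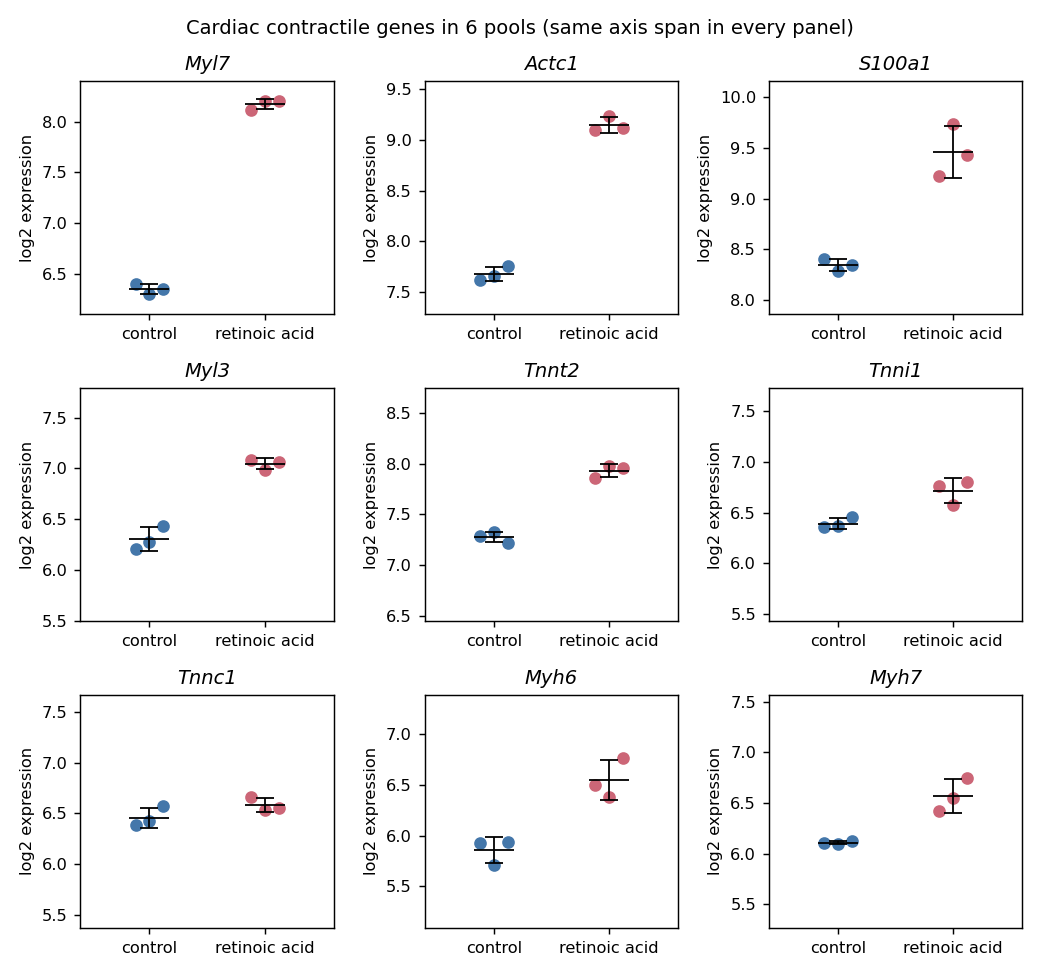
Log2 expression of the 9 cardiac contractile genes in each pool; blue points are the 3 controls, red points the 3 retinoic acid pools, and black bars the mean ± SD. Every panel spans the same number of log2 units, and the groups are apart in all panels except that of Tnnc1.

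Of the genes placed with the atrium by textbook knowledge, Myl7 had the larger difference. Myl7 (chromosome 14, 86567234 to 86570122; positions are as the authors list them, on a build the sources used here do not name) encodes the atrial regulatory light chain, which in the early heart tube is expressed along its whole length. It read 6.40, 6.30 and 6.35 in controls 1 to 3 and 8.11, 8.20 and 8.20 in exposed pools 1 to 3. The lowest exposed pool stood 1.71 above the highest control, and the difference was 1.82 ± 0.068 (SE, n = 3 and 3), a 3.54-fold change and rank 2 among all tested rows.

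Myh6 (chromosome 15, 33044506 to 33068098), the alpha heavy chain and main motor of the rodent atrium, read 5.93, 5.71 and 5.94 in controls. In the exposed pools it read 6.50, 6.39 and 6.77, above every control. Its means were 5.86 ± 0.13 (SD, n = 3) and 6.55 ± 0.20 (SD, n = 3), a difference of 0.69 ± 0.092 (SE). The control mean of Myh6 lay under 6.17, the level that 95% of 1219 olfactory receptor rows stayed below. Those rows serve as a reference for dim signal, since few embryonic cells are known to express such receptors.

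The ventricular genes also differed. Myl3 (chromosome 8, 115140705 to 115146827), the essential light chain of ventricle and slow skeletal muscle, read 6.20, 6.27 and 6.43 in controls. The exposed pools were at 7.09, 6.98 and 7.07, all above the controls. The difference was 0.74 ± 0.074 (SE, n = 3 and 3), or 1.67-fold.

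Myh7 (chromosome 15, 33072928 to 33095036), the beta heavy chain, which is the main ventricular motor before birth in rodents, lies beside Myh6 in the genome. It read 6.11, 6.09 and 6.13 in controls and 6.42, 6.55 and 6.74 in exposed pools. The controls spread little (SD 0.018, n = 3) and the exposed pools more (SD 0.16, n = 3), with exposed pool 3 the highest for both heavy chains. The difference was 0.46 ± 0.079 (SE), and its control mean too lay in the range of the dim reference rows. The heavy chains are closely alike in sequence, and how far each probe set reads the other transcript was not tested. The cross-hybridization column of the file is 0 for every row.

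Set side by side, the atrial genes differed by 1.82 and 0.69 and the ventricular genes by 0.74 and 0.46. The atrial median (1.26) exceeded the ventricular median (0.60) by 0.66, and without Myl7 the gap was 0.09. With 2 genes a side, and with Myh6 and Myh7 dim in controls, the gap is given as a description only. The labels are those of textbook chamber use. Whether these genes are confined to a chamber at E10.5 was not tested, so the gap does not compare atrial with ventricular tissue. Other genes of either chamber were counted from lists written for this work. Of 14 further atrial genes 1 was called higher and 2 lower, and of 9 further ventricular genes none was called by limma, with 3 higher and none lower at an unadjusted p under 0.05 and none in the authors' deposited table.

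The atrial list held natriuretic peptide A, Nppa, the classic atrial hormone gene, named after its values were seen, which read 6.17, 5.96 and 6.28 in controls and 6.36, 6.23 and 6.40 in exposed pools (log2 difference 0.20, adjusted p = 0.16). The groups overlapped for Nppa, and its control mean (6.14) lay under the dim reference level. Tbx5, a transcription factor of the atria and forelimb field, fell from 9.38 ± 0.041 (SD, n = 3) to 8.90 ± 0.13 (SD, n = 3) with a limma adjusted p of 0.00047. Gja5, which encodes the gap junction protein connexin 40 of atrial muscle and arterial endothelium, fell by 0.35 log2 units (adjusted p = 0.0040). Stard10, a lipid transfer protein gene, rose by 0.30 (adjusted p = 0.0097). In the ventricular list the smallest p-values belonged to the gap junction gene Gja1 (log2 difference 0.19, adjusted p = 0.12) and the ventricular transcription factor gene Irx4 (0.18, adjusted p = 0.15). Myl2, the ventricular regulatory light chain, was not analysed here.

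Among genes used in both chambers, Actc1 (chromosome 3, 99901022 to 99906558) encodes cardiac alpha actin, the thin filament protein of the early heart that embryonic skeletal muscle also uses. It read 7.62, 7.66 and 7.76 in controls and 9.09, 9.24 and 9.12 in exposed pools, with no overlap. The difference was 1.47 ± 0.071 (SE, n = 3 and 3), or 2.77-fold.

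Actins are closely alike, so the rows of other actin genes were read beside it. Acta1, the skeletal alpha actin, had a log2 difference of 0.00 (adjusted p = 1.0), and Actg2, an enteric smooth muscle actin, one of 0.09 (adjusted p = 0.58). Actb, the cytoskeletal beta actin, was at 0.15 (adjusted p = 0.22), and the 2 rows of gamma actin, Actg1, were at 0.17 and 0.19 (adjusted p = 0.15 and 0.10). None of these rows was called, and for the Actg1 and Actb rows the exposed pools did lie above the controls.

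S100a1 (chromosome 2, 182784818 to 182787370), which encodes a calcium sensor of heart muscle that enhances calcium cycling, read 8.40, 8.28 and 8.34 in controls. It read 9.22, 9.74 and 9.43 in exposed pools, the widest spread of the 9 genes within a group (SD 0.26, n = 3). The difference was 1.12 ± 0.098 (SE) and ranged from 0.98 without exposed pool 2 to 1.24 without exposed pool 1.

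The 3 troponin subunits did not move alike. Tnnt2 (chromosome 13, 48872972 to 48885815), cardiac troponin T, which ties the complex to tropomyosin, read 7.28, 7.32 and 7.22 in controls and 7.86, 7.98 and 7.96 in exposed pools, a difference of 0.66 ± 0.068 (SE, n = 3 and 3). Tnni1 (chromosome 13, 48830442 to 48841258) encodes slow skeletal troponin I, the inhibitory subunit that the embryonic heart uses. It read 6.35, 6.36 and 6.46 in controls and 6.77, 6.58 and 6.80 in exposed pools, a smaller difference of 0.32 ± 0.074 (SE). Its exposed pool 2 stood only 0.12 above the highest control.

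Tnnc1 (chromosome 16, 6639357 to 6642331), the calcium-binding subunit of cardiac and slow skeletal muscle, read 6.38, 6.42 and 6.57 in controls and 6.66, 6.53 and 6.55 in exposed pools. Control 3 lay above exposed pools 2 and 3, and the difference was 0.12 ± 0.073 (SE). It was the smallest of the 9, with rank 4546 among the tested rows, against rank 700 for Tnni1 and rank 43 for Tnnt2. Tnni3, the troponin I of the mature heart, had a log2 difference of 0.04 (adjusted p = 0.84), and Tnnt1, the slow skeletal troponin T, one of 0.02 (adjusted p = 0.92). Neither was called.

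**Figure D2:**
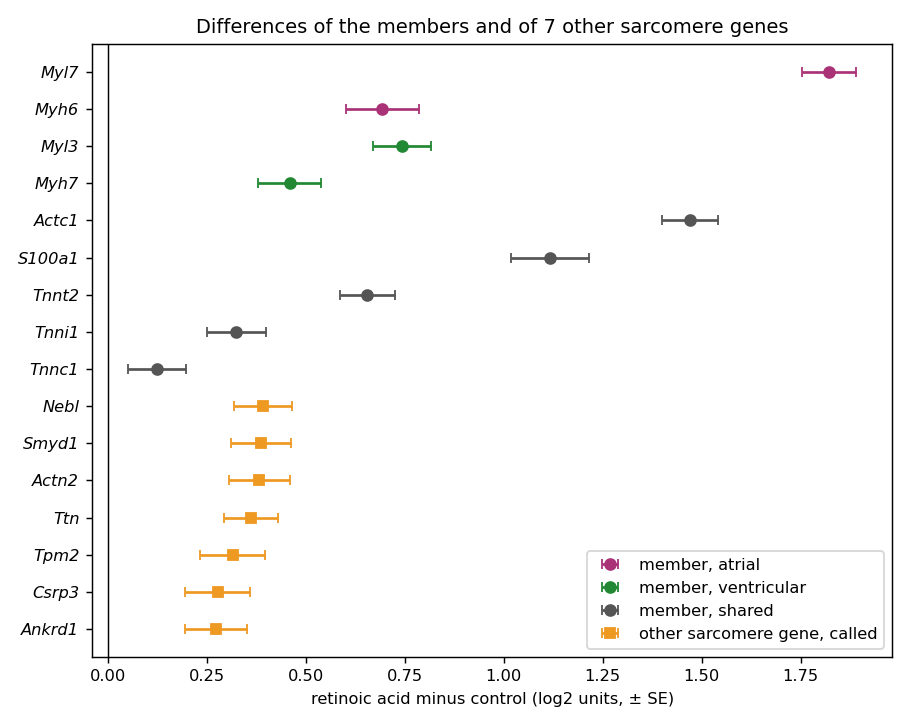
Difference between retinoic acid and control means in log2 units, with its SE, for the 9 cardiac contractile genes (circles, coloured by chamber) and for the 7 other sarcomere genes that were called (squares). Myl7, Actc1 and S100a1 lie above 1, while the 7 squares lie between 0.27 and 0.39.

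Promoter windows were read for the genes with an entry in a RefSeq table of GRCr8, 7 of the 9, each from 250 bases before to 50 bases after an annotated start. S100a1 and Tnnc1 have no entry there. The windows with a CArG box or a GATA motif are shown. Capitals mark the CArG box (CC, then only A or T, then GG, read by serum response factor), the GATA motif AGATAA and the M-CAT motif CATTCC, searched on both strands.
Actc1, chr3:121271778-121272077, minus strand: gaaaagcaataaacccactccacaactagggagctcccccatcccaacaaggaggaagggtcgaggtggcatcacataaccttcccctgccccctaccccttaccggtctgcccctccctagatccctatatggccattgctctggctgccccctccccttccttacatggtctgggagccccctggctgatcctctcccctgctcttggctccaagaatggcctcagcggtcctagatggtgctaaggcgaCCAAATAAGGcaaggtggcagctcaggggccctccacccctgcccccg
Myl3, chr8:119616844-119617143, plus strand: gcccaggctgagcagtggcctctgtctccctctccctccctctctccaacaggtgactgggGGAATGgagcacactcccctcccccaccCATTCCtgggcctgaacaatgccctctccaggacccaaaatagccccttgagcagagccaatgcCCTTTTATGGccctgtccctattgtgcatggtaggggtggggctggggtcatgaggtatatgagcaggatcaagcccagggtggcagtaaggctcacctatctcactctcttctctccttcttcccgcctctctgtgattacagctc
Tnnt2, chr13:49818873-49819172, plus strand: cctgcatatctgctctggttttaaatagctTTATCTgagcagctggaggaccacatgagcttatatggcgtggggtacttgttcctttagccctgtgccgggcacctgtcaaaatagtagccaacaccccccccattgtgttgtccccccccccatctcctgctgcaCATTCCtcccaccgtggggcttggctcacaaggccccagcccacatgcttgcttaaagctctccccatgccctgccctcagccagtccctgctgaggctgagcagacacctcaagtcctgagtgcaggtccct

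The CArG box was found in 2 of the 7 genes and in 1.64% of 33469 windows of all genes. It lay at bases 3 to 12 counted from the annotated start of Actc1 and 97 to 88 bases before that of Myl3. The 7 genes had 8 windows, since Tnnt2 has 2, and the Tnnt2 window not shown held an E-box alone. Members are thus counted by gene, while the shares are by window. CATTCC was found in Myl3, Tnnt2 and Myh6 and in 14.2% of all windows, and AGATAA in Tnnt2 and in 11.6%. The E-box CANNTG, left in lower case, was in 6 of the 7 and in 72.1% of all windows. Neither the MEF2 motif (3.84% of all windows), the NK2 motif TNAAGTG (11.5%), the TATA box TATAAA (14.2%) nor the retinoid receptor half-site AGGTCA (16.2%) was found in a window of these genes. Matches of different motifs did not overlap, and the Myl7 window held E-boxes alone. The Myl7 and Myh6 windows begin at an annotated start inside the gene span, so other starts of these genes lie outside them. Whether the windows of the other genes, Actc1, Myh7 and Tnnt2 among them, hold the start used in heart muscle was not tested. A motif that was not found is therefore absent from these windows only. A match describes the letters of the window and is no evidence of binding.

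Small RNAs encoded inside cardiac myosin genes were read as well, a choice made after their values were seen. Mir208b lies within the Myh7 row and on its strand (chromosome 15, 33078016 to 33078127), and Mir499 lies within Myh7b (chromosome 3, 146127959 to 146128023). Of each, 1 mature arm is shown as a description of its letters. The comparison with the host genes uses the array rows alone. Capitals mark the seed, bases 2 to 8, and the first 6 letters of the seed are shared.
rno-miR-208b-3p: aUAAGACGaacaaaaggu
rno-miR-499-5p: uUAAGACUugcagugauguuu
While Myh7 differed by 0.46, the Mir208b row read 5.26, 5.26 and 5.27 in controls and 5.20, 5.25 and 5.22 in exposed pools (log2 difference -0.04, adjusted p = 0.82). Myh7b was at -0.06 (adjusted p = 0.72) and Mir499 at -0.01 (adjusted p = 0.98). All of these microRNA rows were in the range of the dim reference rows, so a change of the hairpins was not detectable here.

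Other contractile and sarcomere genes were counted from a list of 53 genes, of which 50 were measured. The list also holds genes of skeletal and smooth muscle, some of them counted again in the lists of those tissues below. Its share and median are thus not those of cardiac genes alone. Of these, 7 rose and none fell (limma, adjusted p under 0.05), a share of 14.0% against 7.69% of all rows called higher. The authors' deposited table calls 5 higher and none lower, and at an unadjusted p under 0.05 there were 11 higher and 1 lower. The list median was 0.07, close to the 0.03 of all rows. In controls 23 of the 50 measured genes were above the dim reference, so a change in the others may not have been detectable. Nebl, which encodes the thin filament protein nebulette, read 5.82, 5.74 and 5.90 in controls and 6.22, 6.31 and 6.11 in exposed pools (adjusted p = 0.0024). Ttn, the giant spring titin, rose from 5.94 ± 0.064 (SD, n = 3) to 6.30 ± 0.049 (SD, n = 3), adjusted p = 0.0025. The control means of Nebl and Ttn lay under the dim reference level of 6.17.

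Smyd1, a methyltransferase needed for sarcomere assembly, rose by 0.39 ± 0.076 (SE, adjusted p = 0.0032). Its control mean (6.09) lay under the dim reference level. Actn2, the alpha-actinin that anchors thin filaments at the Z disc, rose by 0.38 ± 0.077 (SE, adjusted p = 0.0038). These 4 genes kept their calls when any single sample was left out. The remaining calls, named after their values were seen, were Tpm2, a tropomyosin (0.32), Csrp3, a Z disc protein (0.28), and Ankrd1, a stress-responsive nuclear protein (0.27). Without control 2 each of these 3 lost its call, at adjusted p = 0.12, 0.18 and 0.17, and 4 genes of the list were then called. Tpm2 also lost its call without exposed pool 2 or 3, Csrp3 without control 1, control 3 or exposed pool 1, and Ankrd1 without control 1 or exposed pool 1 or 2. After the spike-in shift, which changes every difference by the same amount and widens the spread as given above, no gene of the list was called. Csrp3, like Smyd1, had a control mean (5.83) under the dim reference level.

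Genes that load and release calcium or carry the membrane current were counted next. Of 31 measured, 3 rose (9.68%, against 7.69% of all rows) and 1 fell, with a list median of 0.06. Among the 31, 22 were above the dim reference in controls. After quantile normalization the list had 3 higher and 2 lower, while the share of all rows called higher was 4.06% and lower 3.88%. Srl, which encodes the sarcoplasmic reticulum protein sarcalumenin, had the largest rise, from 5.71 ± 0.070 (SD, n = 3) to 6.24 ± 0.047 (SD, n = 3), adjusted p = 9.3e-05. Its control mean lay under the dim reference level of 6.17. Cacna1g, a T-type calcium channel gene of pacemaker and embryonic heart cells, rose by 0.29 (adjusted p = 0.0096), and Cacna2d2, an auxiliary calcium channel subunit, by 0.28 (adjusted p = 0.019). Both lost their call without control 1 (adjusted p = 0.057 and 0.084), and Cacna2d2 also without control 3 (0.082) or exposed pool 3 (0.076). The gene that fell was Gja5. Ryr2, the calcium release channel, and Pln, the inhibitor of the calcium pump, were at 0.01 and 0.08 (adjusted p = 0.98 and 0.61), and both were named after their values were seen.

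Genes of the energy supply of heart muscle were counted too. Of 12 genes none was called higher by limma or in the authors' deposited table, with 1 at an unadjusted p under 0.05. Pygm, the muscle glycogen phosphorylase, fell from 7.37 ± 0.040 (SD, n = 3) to 6.83 ± 0.093 (SD, n = 3), adjusted p = 0.00012.

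Regulatory genes of heart progenitors, mostly transcription factors, went both ways. The list also holds the growth factor gene Fgf10 and the chromatin remodelling gene Smarcd3. Of 25 measured, 8 rose (32.0%) and 2 fell (8%, against 2.06% of all rows called lower), with a list median of 0.10. Myocd, the smooth and cardiac muscle coactivator myocardin, rose from 6.64 ± 0.035 (SD, n = 3) to 7.17 ± 0.13 (SD, n = 3), adjusted p = 0.00025. Srf, the serum response factor that myocardin binds at CArG boxes, rose from 9.75 ± 0.075 (SD, n = 3) to 10.21 ± 0.031 (SD, n = 3), adjusted p = 0.00035. Tbx1, of pharyngeal mesoderm and the second heart field, rose by 0.52 (adjusted p = 0.00061). Nkx2-5 (0.40), Gata4 (0.30) and Gata5 (0.27) also rose, while Isl1, of the second heart field, fell by 0.40 and Tbx5 fell as above; of these, Nkx2-5, the Gata genes and Isl1 were named after their values were seen. Gata4 lost its call without control 2 (adjusted p = 0.056) or exposed pool 3 (0.050).

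Markers of other cells that the pools could hold were read beside the cardiac genes. Of 20 skeletal muscle genes none was called by limma or in the authors' deposited table (none higher and 1 lower at an unadjusted p under 0.05), and the mean level of the list was 5.97 to 6.10 in controls and 6.01 to 6.08 in exposed pools. Only 5 of the 20 were above the dim reference in controls, so a change in the others may not have been detectable. The smallest p-values belonged to Tnnc2, the fast troponin C (log2 difference -0.17, adjusted p = 0.20), and Myh8, the perinatal heavy chain (0.17, adjusted p = 0.23). Myog, a skeletal muscle determination factor named after its values were seen, was at 0.03. Of 9 smooth muscle genes none rose in either table (none at an unadjusted p under 0.05) and Itga8, an integrin, fell by 0.33 (adjusted p = 0.0085). Of 11 genes of epicardium and pericardium 2 rose and 4 fell, led by Aldh1a2, a retinoic acid synthesizing enzyme (0.54), and Bnc2, a zinc finger protein (-0.45).

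The endothelial list had a median difference of -0.44. Of its 12 measured genes 9 fell and none rose (none at an unadjusted p under 0.05 or in the authors' deposited table). Its mean level was 7.90 to 7.96 in controls and 7.49 to 7.55 in exposed pools. The 9 contractile genes differed the other way but were picked from this contrast. Medians of the other heart lists ran from -0.01 (atrial) to 0.10 (heart progenitor regulators). Cdh5, the cadherin of endothelial junctions, fell by 0.78 (adjusted p = 4.3e-06) and Erg, an endothelial transcription factor, by 0.63. Of 9 blood genes 3 rose, among them the embryonic globin gene Hbe1 (0.38). The call of Hbe1 was lost after quantile normalization (log2 difference 0.08, limma adjusted p = 0.52) and after cyclic loess (-0.0028, adjusted p = 0.99). Without control 1, control 3, exposed pool 2 or exposed pool 3 the list had 2 genes called higher, as in the authors' deposited table. The blood list mean was 9.01 to 9.17 in controls and 9.20 to 9.26 in exposed pools.

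Of 11 measured neuroepithelial genes, the labelled cell type, 5 rose and none fell (none at an unadjusted p under 0.05 or in the authors' deposited table), with a list mean of 8.34 to 8.43 in controls and 8.55 to 8.63 in exposed pools. All 11 were above the dim reference in controls. Sox2, a neural stem cell factor, rose by 0.83 (adjusted p = 6.3e-06). The 5 calls went down to 3 without control 1, without control 3 or without exposed pool 2, and Sox2 and Pax6, an eye and neural tube factor, were the genes that kept theirs whichever sample was left out. Of 13 paraxial mesoderm genes 5 rose, led by Meox1 (0.93), and 2 fell, led by Msgn1 (-0.53). Without control 2 there were 3 genes higher, since Tcf15 and Pax1 lost their calls (adjusted p = 0.058 and 0.14), and the authors' deposited table calls 4 higher and 2 lower. Of 15 genes listed for endoderm and yolk sac 1 rose and 3 fell, among them Shh (-0.46) and Afp (-0.33). Whether the Shh signal came from endoderm was not tested. The gene that rose, Krt8, lost its call without control 2 (adjusted p = 0.22), exposed pool 1 or exposed pool 2 and after quantile, median or cyclic loess scaling, and Alb, the third that fell, lost its call without any 1 sample. The authors' deposited table calls 0 higher and 2 lower. The part that any of these cell types has in the cardiac differences was not tested, and in pooled material more cells of a type and more RNA per cell cannot be told apart.

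**Figure D3:**
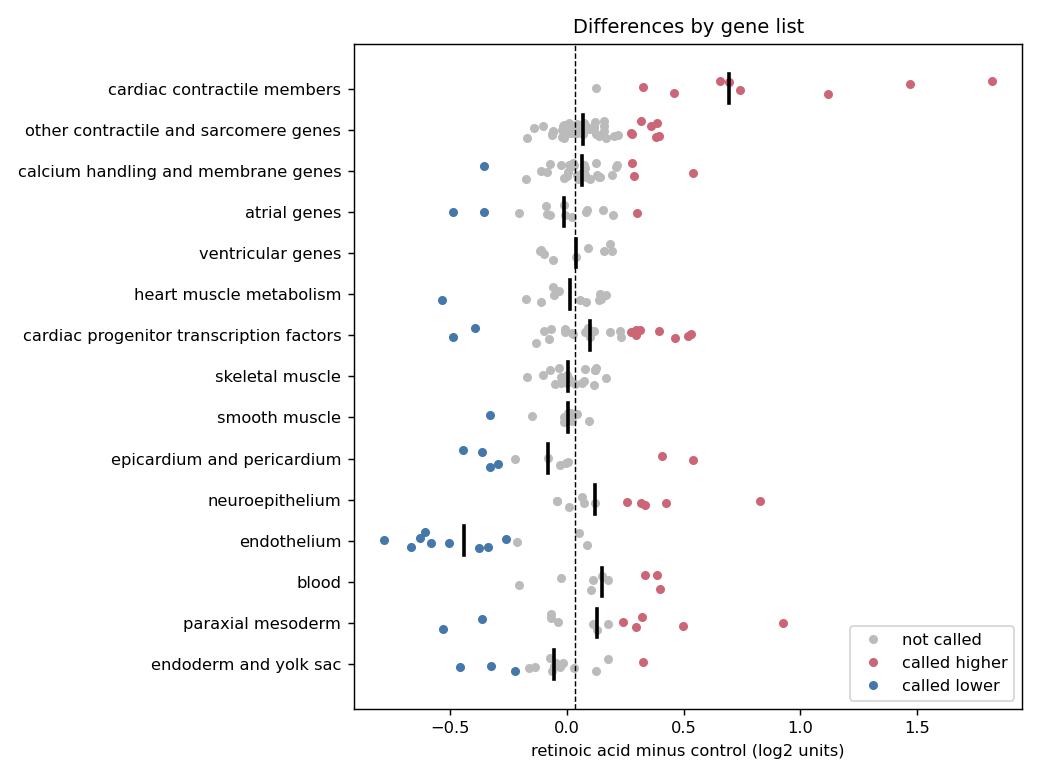
Difference between retinoic acid and control means in log2 units for each gene of the cardiac contractile set and of 14 other lists; grey points were not called, red points were called higher and blue points lower, the black bar is the list median and the dashed line the median of all tested rows (0.03). The median of the contractile genes, picked from this contrast, is 0.69, that of the endothelial list -0.44, and that of the skeletal muscle list 0.01.

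The genes were picked with the contrast in view, and whether the spread within a group played a part in that choice is not known. Their pooled within-group SD ran from 0.052 in Myl7 to 0.19 in S100a1, with a median of 0.091, while the median over all tested rows was 0.085. Deviations from the group mean were largest for S100a1 in exposed pools 1 and 2 (-0.24 and 0.27) and for Myh6 in exposed pool 3 (0.22). Control 2 lay below its group mean for 8 of the 9 genes and control 3 above it for 7. In the exposed group no pool was high throughout: pool 3 was above the mean for 6 genes, pool 2 for 4 and pool 1 for 3.

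Over the 36 gene pairs the correlation of these deviations had a median of 0.15 and ran from -0.88 (Tnnt2 with Tnnc1) to 0.93 (Myl3 with Tnnc1). The correlations were above 0 for 22 pairs and below 0 for 14. The median changed sign without exposed pool 1 (-0.080) or control 3 (-0.023), was 0.06 after quantile normalization or median centring, and was 0.87 after the spike-in shift. The 6 deviations of a gene share the group means and the array scaling, so these values describe the pools and carry no test.

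**Figure D4:**
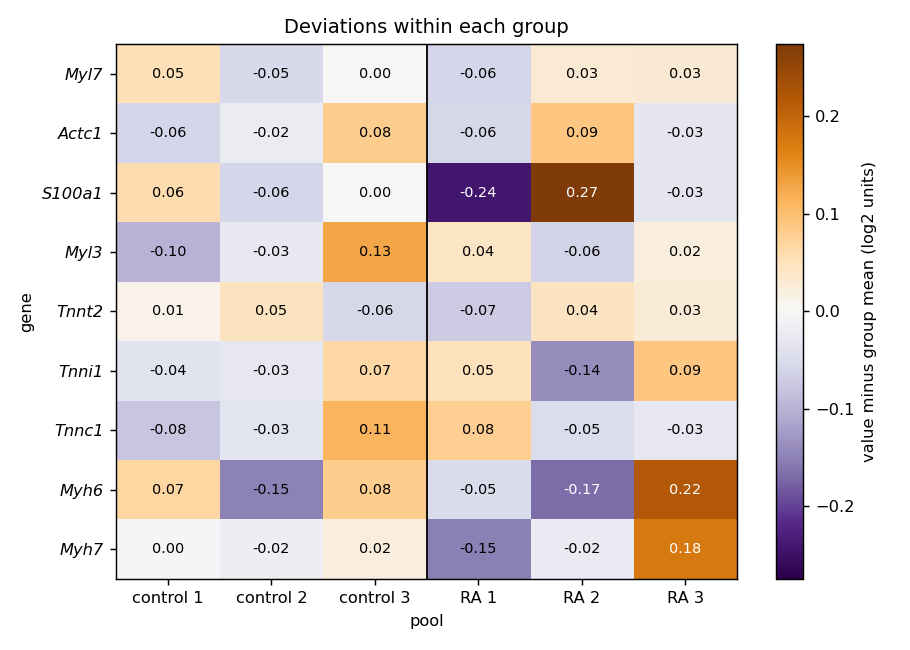
Each cell gives a gene's value in a pool minus the mean of its group, in log2 units, for the 9 cardiac contractile genes; RA marks the retinoic acid pools and the vertical line parts the groups. The extreme cells are those of S100a1 in RA 1 (-0.24) and RA 2 (0.27), and no pool has the same sign throughout.

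The rows whose 6 values, centred on their control mean, lay nearest to the mean profile of the 9 genes were those of Aimp2, Clybl, Cnppd1, Egr3, Sst, Zic2, Egr2 and Meox1. Their root mean square distances over the 6 samples ran from 0.048 for Aimp2, a scaffold of the tRNA synthetase complex, to 0.096 for Meox1. Aimp2 went from 10.51 to 11.30 and Clybl, a citramalyl-CoA lyase of mitochondria, from 7.98 to 8.79. No further cardiac muscle gene was among these 8. The distance depends largely on the size of the difference, which ran from 0.75 (Egr2) to 0.93 (Meox1) in these rows. The largest differences in the sarcomere and calcium lists were 0.39 and 0.54, so their genes could hardly be near, and nothing is read from their absence.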

How the data were processed

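Expression was measured by array in 3 control and 3 retinoic acid pools, labelled with biotin by the Affymetrix standard, per the labels' protocols. The authors deposited 1 table of 29656 rows with log2 values that they had normalized by a method that the sources used here do not name; the series matrix holds the same numbers. The deposited log2 fold change, score (t and B) and p-value columns come from the authors, by their headers, and limma is named without a version in the submitters' processing notes. Columns WT1 to WT3 were matched to the control samples of equal number, because the series matrix holds identical values under those samples.

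The 167 array controls and 9231 rows with no gene name or accession were left out, and 20258 rows were tested with limma 3.58.1 in R 4.3.3 (lmFit, eBayes; retinoic acid minus control; no block; two-sided; Benjamini-Hochberg over all 20258). The fit was tested on simulated data. The members, the 14 lists and the settings were chosen with earlier results of these data known. Lists took 1 row per gene, that of highest mean; genes were named as all members, their close relatives, up to 4 called genes per list by smallest p (or 2 where none was called) and the 8 nearest profiles, and others are marked in the text. Of the 9 measured members, 9 matched a current rat gene (RefSeq, GRCr8) by Entrez identifier. The nominal ratio of a spike-in came from general knowledge of the product. Promoter and microRNA sequences are from RefSeq (GRCr8), whose coordinates are not those of the file. Arrays carry no read depth, and their number limits the precision. Tables were read with pandas 2.3.3 and figures drawn with matplotlib 3.10.9. Alternatives were a replicate block, quantile, median and cyclic loess scaling, the spike-in shift, trend and robust moderation, array weights, level filters, averaging rows of a symbol, the authors' statistics and leaving out each sample.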

Additional observations from a re-analysis of the deposited data

How the results depend on the processing

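Of 135 recomputed differences of the 9 members, 36 equal the reported ones by construction, and the other 99 kept their sign and moved by less than the spread between replicates. The lowest and highest differences without any 1 sample were 1.80 and 1.85 for Myl7, 0.58 and 0.78 for Myh6 and 0.08 and 0.18 for Tnnc1. Without 1 sample the median of the members ran from 0.64 to 0.77 and the atrial minus ventricular gap from 0.62 to 0.71. The count of members called was 8 without any 1 sample and 5 after the spike-in shift. Over all rows 4.68% to 6.22% were called higher without 1 sample, and 0.197% after the spike-in shift. The members were picked from this contrast, so these counts are no support. The median correlation of within-group deviations was 0.87 after the spike-in shift, which adds the same shift to every gene of a sample, and ran from -0.080 (without exposed pool 1) to 0.25 without 1 sample.

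Calls over all rows were 1558 higher and 417 lower. They were 823 and 785 after quantile normalization, 859 and 767 after cyclic loess, and 40 and 7 after the spike-in shift; without 1 sample they ran from 949 to 1261 and from 254 to 352, lowest without control 3 and control 1; without exposed pool 2 there were 1019 higher, and without control 2 262 lower. The share of calls that were higher thus depends on the scaling. In the sarcomere list 7 genes were called higher, none after the spike-in shift, 1 among rows above the median level (a filter that removes dim rows), and 4 to 7 without 1 sample; calls lower were none, and 0 to 1 without 1 sample (Trim55, without exposed pool 2). In the calcium list, calls higher were none after the spike-in shift and 1 to 3 without 1 sample; calls lower were none after the spike-in shift, 2 after quantile normalization and cyclic loess (Atp2a2 joined Gja5) and with array weights (Cacna1c), and 1 to 2 without 1 sample (Cacna1c, without exposed pool 2). Among 57 called list genes 121 of 1007 recomputed values were not called, 54 of them after the spike-in shift. The sign of 1 was reversed, that of Hbe1 after cyclic loess (-0.0028, not called). Unless stated, the cause was not tested.

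With the replicate number as a block, 1876 rows (9.26%) were called higher and 540 (2.67%) lower, and 8 members were called. Samples of equal number share a number only: their deviations correlated at -0.11, 0.23 and 0.24 for numbers 1, 2 and 3.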
